A study of Mus musculus with 4 samples.

Results

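The m6A readers examined here were the 5 YTH genes Ythdf1, Ythdf2, Ythdf3, Ythdc1 and Ythdc2 and the 3 Igf2bp genes Igf2bp1, Igf2bp2 and Igf2bp3. They were taken by name, as the 8 genes to which 9 RefSeq coding sequences of the deposited table map, out of 20716 genes in all. Ribosome footprints, the short mRNA stretches that a translating ribosome shields from RNase, had been sequenced from 4 cultures of C57BL/6 mouse cells. These were embryoid bodies (EBs) with a Mettl3 knockout (KO), wild-type (WT) EBs, KO embryonic stem cells (ESCs) and WT ESCs, with 1 library of each. ESCs were kept naive, in N2B27 medium lacking serum, by LIF, the GSK3 inhibitor CHIR99021 and the MEK inhibitor PD0325901. EBs are floating aggregates of such cells, grown here without the inhibitors and with serum for 8 to 21 days. The exact day, the part of Mettl3 that was altered and the number of clones were not stated in any source used here. Genotype and the identity of the line or library therefore cannot be told apart, and no difference has a replicate check.

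N6-methyladenosine (m6A) is written on mRNA by a complex whose catalytic subunit is Mettl3, and readers are the proteins that act on the marked transcripts. YTH proteins hold the methylated base in an aromatic pocket of their YTH domain. Igf2bp proteins bind RNA through KH domains, stabilise many transcripts, and are abundant in embryonic tissue and in tumours. Footprints follow both the amount of an mRNA and how densely ribosomes occupy it, so they report on the making of the reader proteins and not on their binding to m6A. In a culture of mixed cells, fewer cells of a type and less RNA per cell cannot be told apart either.

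Features of the sequences bear on how far these genes could be counted. The first is the coding sequence of Ythdf3, which appears in the table as 2 entries. NM_001145919 has 5 coding exons and 1758 bases, every one of which also lies in NM_172677, and NM_172677 has 6 exons and only 33 bases of its own. Those 33 bases are a single exon (chr3:16203187-16203219, plus strand, GRCm38.p6), shown here in capitals between 24 bases of the exons on either side, to make visible how little of the gene could be assigned to a single entry.
Ythdf3 with the exon (NM_172677): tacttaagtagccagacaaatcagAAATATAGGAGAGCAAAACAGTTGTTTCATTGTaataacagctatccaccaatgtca
Ythdf3 without the exon (NM_001145919): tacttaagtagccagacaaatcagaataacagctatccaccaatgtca
Both Ythdf3 entries held 0 reads in all 4 libraries. The counting tool named by the submitters, HTSeq, in its standard modes sets aside a read that falls on more than 1 entry as ambiguous; the mode used is not stated. Among genes with 2 or more entries 68.3% had 0 reads, against 21.9% of genes with 1 entry. The listing at 0 is therefore no measure of Ythdf3 translation, and Ythdf3 enters no comparison.

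Next comes likeness between family members. No stretch of 28 nt, about the length of a footprint, was shared between the coding sequences of any pair of the 8 genes. Copies elsewhere in the genome covered 37.8% of the 28-nt windows of Ythdf2 and at most 2.34% of those of the other 7 genes. Reads from such copies have no unique place and were left out by the authors' counting, so the Ythdf2 level is the least certain of the measured readers, while a ratio between libraries is affected alike in each. The other 7 genes had 1 entry each, none of which overlapped the coding sequence of another gene.

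Matches to a microRNA seed were also sought. The let-7 microRNAs, which accumulate as cells differentiate and whose processing Lin28 proteins block, are known to target Igf2bp mRNAs. The mature mmu-let-7a-5p is printed with its seed, bases 2 to 8, in capitals, followed by the first match to that seed in the 3′ untranslated region of each Igf2bp gene, with the match in capitals (genome letters of GRCm38.p6, minus strand in each case).
mmu-let-7a-5p: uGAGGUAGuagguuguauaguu
Igf2bp1 (chr11:95961778-95961799): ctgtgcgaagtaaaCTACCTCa
Igf2bp2 (chr16:22059473-22059494): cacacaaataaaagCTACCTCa
Igf2bp3 (chr6:49086787-49086808): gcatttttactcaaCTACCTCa
Matches to the letters CTACCTC, searched on the mRNA strand only, numbered 4 in the 6337 bases of Igf2bp1, 1 in the 1784 bases of Igf2bp2 and 1 in the 2124 bases of Igf2bp3. The 5 YTH genes held 0, as did most genes of like length: between 5.46% (Ythdc1) and 16.4% (Ythdf3) of those had a match. Among 505 genes with a 3′ untranslated region within 25% of the length of that of Igf2bp1, itself included, 32.9% had a match. Of these 0.198% had at least 4, a share made up of Igf2bp1 itself. For Igf2bp2 and Igf2bp3 the shares with a match were 11.7% of 3040 and 13.1% of 2945 genes. A match is a string of letters; let-7 itself was not measured.

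Depth set the precision of each level. Reads on coding sequences numbered 4075850 in KO EBs, 4234361 in WT EBs, 11455539 in KO ESCs and 8570204 in WT ESCs. After the authors' normalisation a single read was worth 1.49, 1.56, 0.533 and 0.778 in that order. Levels below are these normalised counts. Intervals in parentheses are 95% exact intervals of the ratio of 2 libraries (Clopper-Pearson), except those of the difference between stages. The latter are 95% intervals from a normal approximation to the log counts of 4 libraries. All these intervals cover counting error only, and reads amplified by PCR are not independent molecules. A gene was called when its log2 fold of value + 1 reached 2-fold, among 9670 genes with a mean of at least 25. When libraries were instead brought to one total (same-total scaling), the all-gene median moved up by 0.118 for KO against WT in EBs and by 0.127 in ESCs. The culture labels were set beside markers. Summed levels of 8 pluripotency genes (Tbx3 at 0) were 18799 in KO EBs, 12465 in WT EBs, 15686 in KO ESCs and 24360 in WT ESCs. Those of 10 endoderm genes (Dab2 at 0) were 1597 in KO EBs, 44630 in WT EBs, 153 in KO ESCs and 187 in WT ESCs. The endoderm sum was thus higher in EBs than in ESCs in both genotypes. The pluripotency sum was lower in EBs than in ESCs in WT but higher in KO, where only the endoderm sum followed the stage label. Tbx3 has 2 entries and Dab2 has 4, so their listing at 0 is no measure of them, as for Ythdf3. Pou5f1 and Esrrb, in the pluripotency sum, have 2 entries each, so their reads may come from only part of the gene. Mettl3, the targeted gene, stood at 327 in KO EBs, 429 in WT EBs, 298 in KO ESCs and 563 in WT ESCs. Footprints counted as 1 sum over the coding sequence remained in both KO libraries. Their positions along it were not given, so they do not check the knockout.

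The readers differed in direction between KO and WT. Ythdf2 and Ythdc1 stood higher in KO at both stages, and the 3 Igf2bp genes and Ythdc2 stood lower in KO at both stages. Ythdf1 stood higher in KO ESCs, and in EBs its difference was within counting error. Of the 7 readers that passed the filter, 0 were called higher and 1, Igf2bp3, was called lower in KO EBs, where 15.2% of all genes were called higher and 12.2% lower. In KO ESCs 1 reader, Ythdc1, was called higher and 0 lower, where 10.6% of all genes were called higher and 4.42% lower. These shares are near the background, so the count of called readers is not in itself a result about them. The median log2 fold of the 7 readers was −0.41 in EBs and −0.14 in ESCs, against −0.067 and −0.0044 over all genes.

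**Figure D1:**
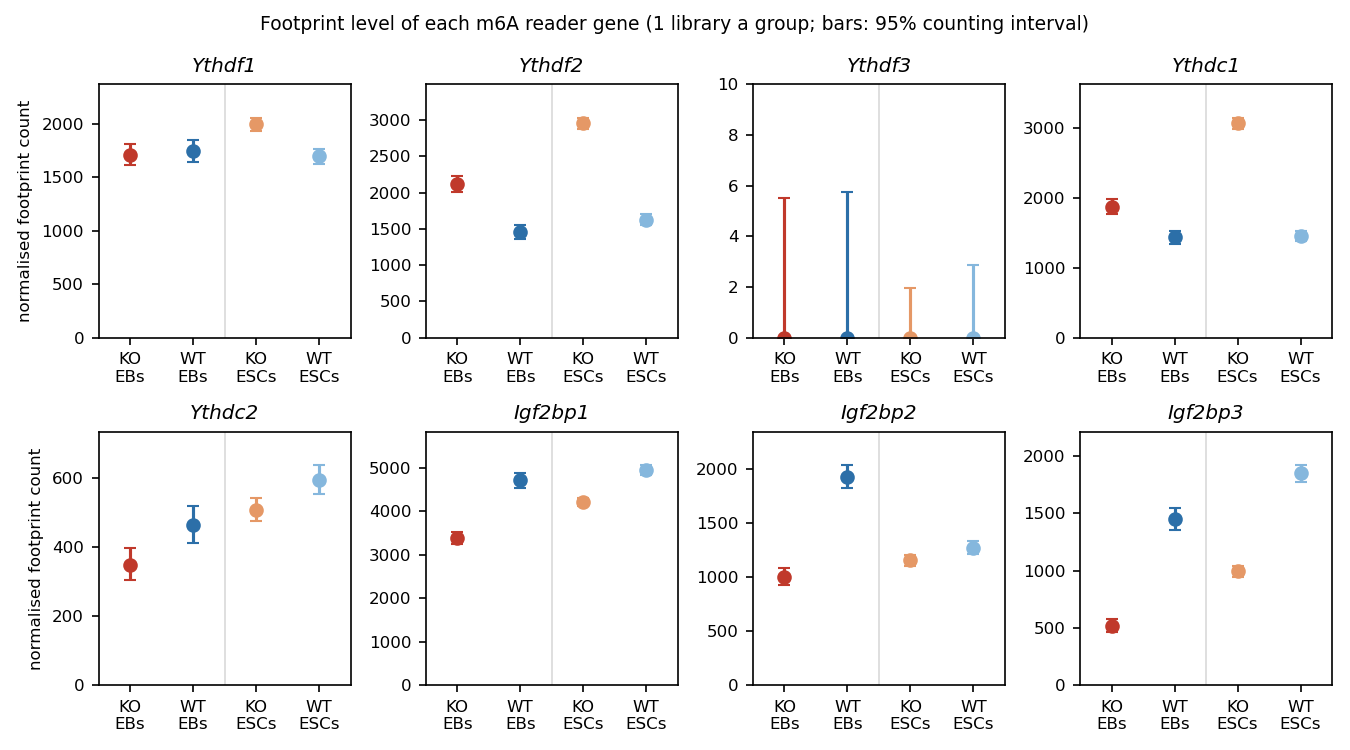
Normalised footprint count (vertical axis, from 0, scaled to each gene) of the 8 readers in KO EBs, WT EBs, KO ESCs and WT ESCs; points are single libraries and bars are 95% Poisson counting intervals. Igf2bp3 is lowest in KO EBs at 515 and highest in WT ESCs at 1848, Ythdc1 is highest in KO ESCs at 3067, and Ythdf3 is listed at 0 in every library.

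Ythdc1 (NM_177680; chr5:86803980-86836659), the nuclear reader, which acts in splicing and in export of mRNA, was the YTH gene furthest from equal in ESCs, though not in EBs. Its level was 1872 in KO EBs, 1434 in WT EBs, 3067 in KO ESCs and 1452 in WT ESCs, from 1254, 920, 5750 and 1866 reads. The KO ESC library stood well above the others, and both WT libraries lay within each other's counting error. Ythdc1 was 2.11-fold higher in KO than WT ESCs (2.00 to 2.23) and 1.31-fold higher in KO than WT EBs (1.20 to 1.42). In the ESC comparison 90.7% of all genes had a lower log2 fold, and in the EB comparison 69.4%.

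Ythdf2 (NM_145393; chr4:132184916-132212256) brings m6A-marked transcripts to the CCR4-NOT deadenylase for decay. It stood at 2121 in KO EBs, 1453 in WT EBs, 2955 in KO ESCs and 1628 in WT ESCs. Both KO libraries were above both WT libraries. The gene was 1.46-fold higher in KO than WT EBs (1.34 to 1.59) and 1.81-fold higher in KO than WT ESCs (1.73 to 1.91). Neither ratio reached 2-fold.

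Ythdf1 (NM_173761; chr2:180904377-180920936), a cytoplasmic paralogue of Ythdf2 first described as a promoter of translation, stood at 1709 in KO EBs, 1746 in WT EBs, 1995 in KO ESCs and 1698 in WT ESCs. All but the KO ESC level, which was the highest, lay within counting error of each other. The ratio was 0.979 in KO EBs over WT EBs (0.901 to 1.06), with a log2 fold of −0.030, which was 0.087 under same-total scaling. In ESCs it was 1.18-fold higher in KO (1.11 to 1.24).

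Ythdc2, an RNA helicase needed for meiosis in germ cells, had the lowest level of the 7. It stood at 349 in KO EBs, 464 in WT EBs, 509 in KO ESCs and 595 in WT ESCs. At both stages the KO library was the lower one, 1.33-fold in EBs (1.12 to 1.58) and 1.17-fold in ESCs (1.06 to 1.29). KO ESCs and WT EBs did not differ beyond counting error.

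Igf2bp3 (NM_023670; chr6:49085218-49215469) showed the widest range of the readers, 3.59-fold between its highest and lowest library. This paralogue is largely restricted to embryonic tissue and tumours. It stood at 515 in KO EBs, 1449 in WT EBs, 992 in KO ESCs and 1848 in WT ESCs, from 345, 930, 1859 and 2374 reads. Both KO libraries lay below both WT libraries. The gene was 2.81-fold lower in KO than WT EBs (2.48 to 3.19) and 1.86-fold lower in KO than WT ESCs (1.75 to 1.98). Counted from the lowest log2 fold, it was gene 474 of 9670 in EBs and gene 534 in ESCs.

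Igf2bp2 (NM_183029; chr16:22059009-22163299), the paralogue that stays on in many adult tissues, stood at 1002 in KO EBs, 1926 in WT EBs, 1152 in KO ESCs and 1269 in WT ESCs. The WT EB library stood apart above the other 3. Igf2bp2 was 1.92-fold lower in KO than WT EBs (1.75 to 2.12), just short of the call on the log2 scale at −0.94. In ESCs it was 1.10-fold lower in KO (1.03 to 1.18), a log2 fold of −0.14 that became −0.013 under same-total scaling.

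Igf2bp1 (NM_009951; chr11:95957163-96005944), known for binding the Myc and beta-actin mRNAs, had the highest level of the readers before copies in the genome are allowed for. It stood at 3379 in KO EBs, 4715 in WT EBs, 4216 in KO ESCs and 4953 in WT ESCs. Again both KO libraries lay below both WT libraries. The gene was 1.40-fold lower in KO than WT EBs (1.32 to 1.47) and 1.17-fold lower in KO than WT ESCs (1.14 to 1.21).

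**Figure D2:**
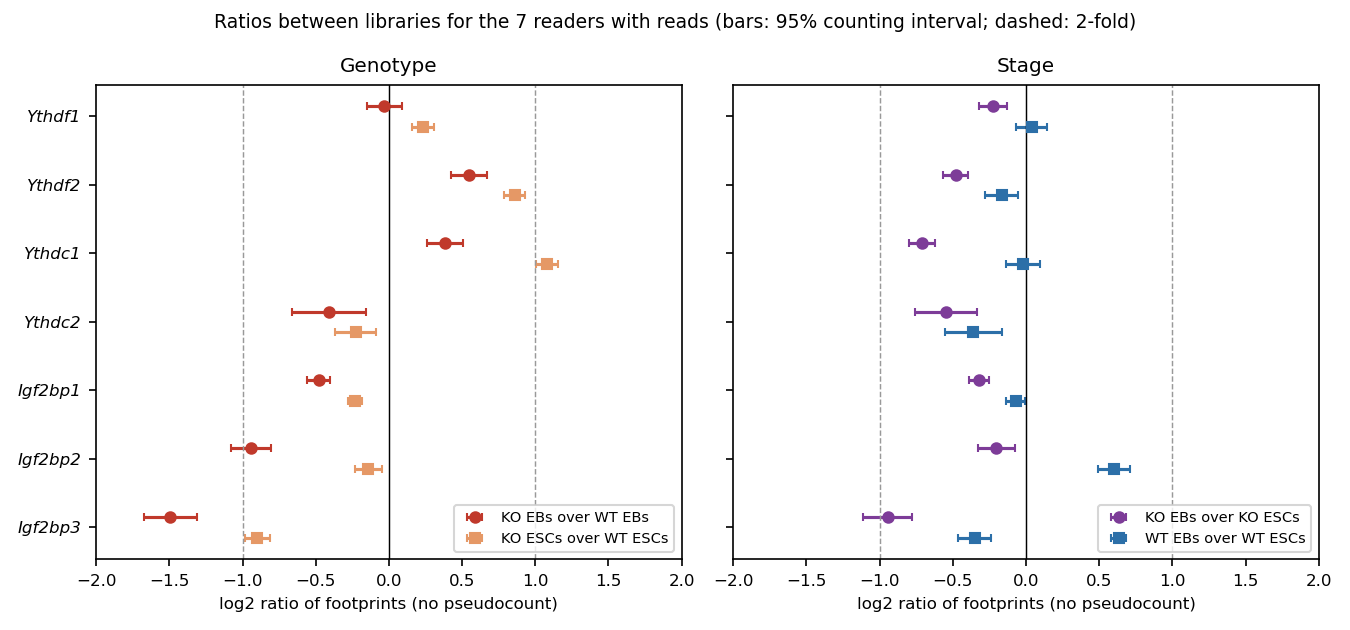
Log2 ratio of footprints (horizontal axis, no pseudocount) for the 7 readers with reads; the left panel shows KO over WT in EBs (circles) and ESCs (squares), the right panel EBs over ESCs in KO (circles) and WT (squares), with 95% counting intervals and dashed lines at 2-fold. In the left panel the 3 Igf2bp genes and Ythdc2 lie left of 0 at both stages and Ythdf2 and Ythdc1 right of 0; in the right panel every KO circle lies left of 0.

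A test over both stages was possible on the recovered reads, with stage as a second factor and 4 libraries. By edgeR's quasi-likelihood test with Benjamini-Hochberg adjustment over 9670 genes, none of the 7 readers passed an adjusted p of 0.05 for KO against WT. Igf2bp3 came closest, with a log2 fold of −1.19 and an adjusted p of 0.198; it was lower in KO in 2 of 2 stages. Ythdf2 had 0.70 with an adjusted p of 0.281 and Ythdc1 0.73 with an adjusted p of 0.296, each higher in KO in 2 of 2 stages. With DESeq2 the Igf2bp3 log2 fold was −1.16 ± 0.366 (SE) with an adjusted p of 0.0470, past the threshold, and the other 6 did not pass. These fits take the difference between the KO effects at the 2 stages as the error, since there are no replicates. By edgeR 0 genes of all passed, with 1521 at an unadjusted p under 0.05, and by DESeq2 251 passed higher and 71 lower.

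**Figure D3:**
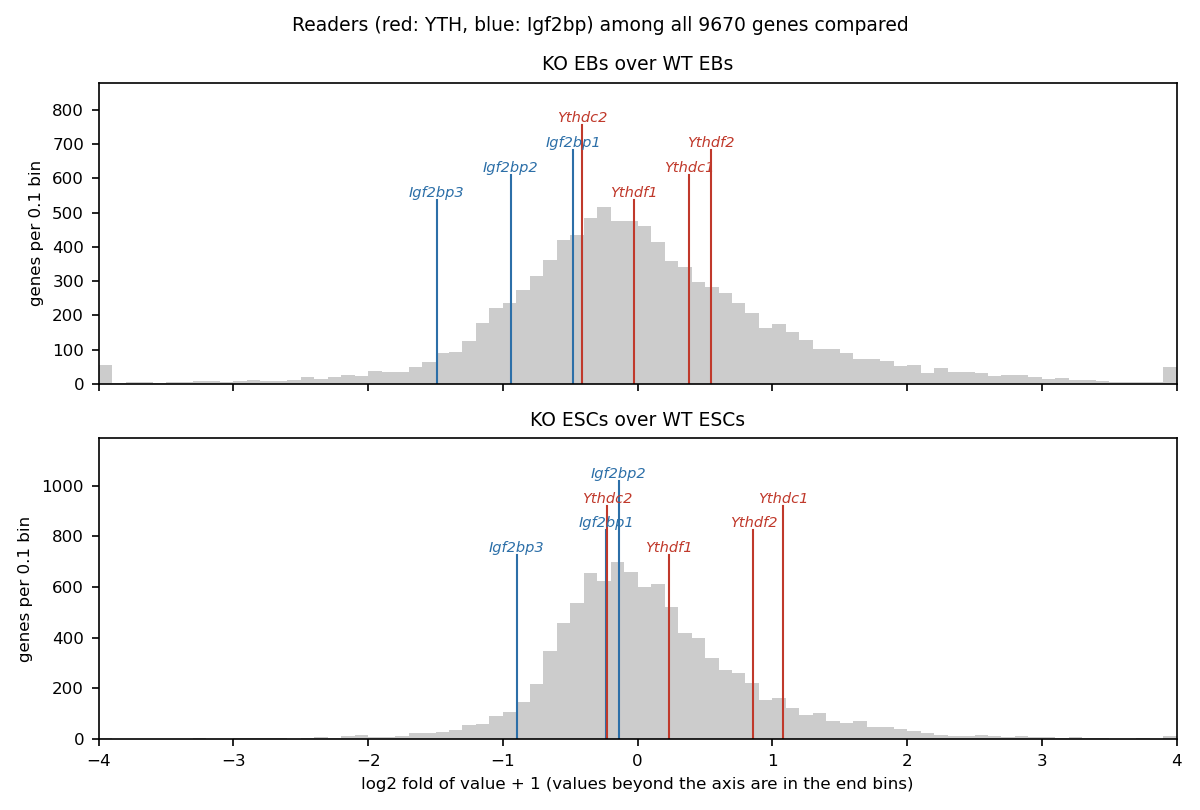
Number of genes per 0.1 bin (vertical axis) against log2 fold of value + 1 (horizontal axis) for all 9670 genes compared, with the 7 readers as lines (YTH red, Igf2bp blue), for KO over WT in EBs above and in ESCs below. Igf2bp3 lies in the lower tail of both panels, at −1.49 and −0.90, and Ythdc1 at 0.38 and 1.08.

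Within a library the balance of the measured family members can be read without any scaling between libraries. Levels per kb of coding sequence were summed over the 4 YTH genes with reads and over the 3 Igf2bp genes. The YTH sum was 3163 in KO EBs, 2629 in WT EBs, 4390 in KO ESCs and 2740 in WT ESCs. The Igf2bp sum was 2808 in KO EBs, 4635 in WT EBs, 3649 in KO ESCs and 4632 in WT ESCs. Igf2bp over YTH was thus 0.888 in KO EBs and 1.76 in WT EBs, and 0.831 in KO ESCs and 1.69 in WT ESCs. Both KO libraries stood below 1 and both WT libraries above it, and the ratio differed little between stages within a genotype. Ythdf3, which could not be measured, is missing from the YTH sum. Where these ratios lie against 1 therefore does not describe the whole families. As totals of normalised counts, the Igf2bp genes were 1.65-fold lower in KO than WT EBs (1.58 to 1.73) and 1.27-fold lower in KO than WT ESCs (1.24 to 1.30). The YTH genes were 1.19-fold higher in KO EBs (1.13 to 1.24) and 1.59-fold higher in KO ESCs (1.54 to 1.63). Both families kept these directions under same-total scaling.

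**Figure D4:**
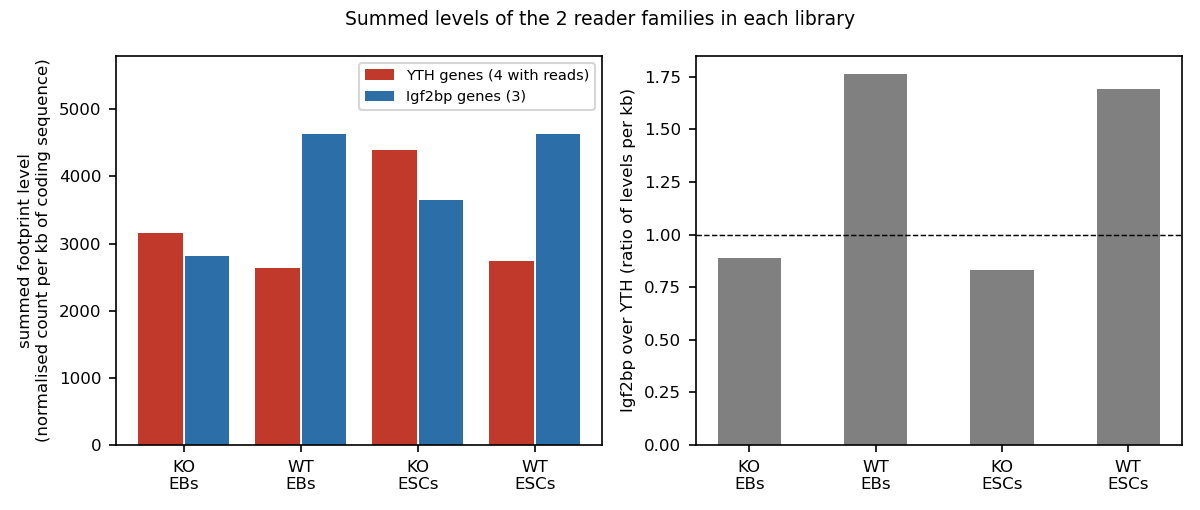
Left, summed level per kb of coding sequence (vertical axis, normalised counts) of 4 YTH genes (red) and 3 Igf2bp genes (blue) in each library; right, the Igf2bp sum over the YTH sum, with a dashed line at 1; bars are single libraries with no error. The ratio is 0.888 and 0.831 in the KO libraries of EBs and ESCs, and 1.76 and 1.69 in the WT ones. Ythdf3 could not be measured and is in no sum.

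The order of the readers by level per kb depended on how Ythdf2 was treated. Per kb of coding sequence Igf2bp1 led in every library, at 1949 in KO EBs, 2719 in WT EBs, 2432 in KO ESCs and 2856 in WT ESCs, and Ythdf2 stood at 1219, 835, 1698 and 936 in that order. Per kb of windows with no copy elsewhere, a scale chosen after seeing the data, Ythdf2 stood at 1990 in KO EBs, 1363 in WT EBs, 2772 in KO ESCs and 1527 in WT ESCs. On that scale it came first in KO ESCs, ahead of Igf2bp1 at 2507, and second in the other 3 libraries. The Igf2bp over YTH ratio on that scale was 0.726 in KO EBs and 1.49 in WT EBs, and 0.679 in KO ESCs and 1.41 in WT ESCs, on the same side of 1 as before. Igf2bp3 was the sixth of 7 in both KO libraries, at 296 per kb of coding sequence in EBs and 570 in ESCs. It was the fifth in WT EBs at 833, next to Ythdf2, and the second in WT ESCs at 1062, or the third there on the other scale. Ythdc2 was last in each library on both scales.

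The passage from ESCs to EBs was compared in WT and in KO cells. Of 7 readers 0 were at least 2-fold higher or lower in WT EBs than in WT ESCs, where 11.0% of all genes were called higher and 8.25% lower. With 7 genes, 0 called is near those shares and is not in itself a result about the readers. Igf2bp2 was 1.52-fold higher in WT EBs (1.41 to 1.63), Ythdc2 1.28-fold lower (1.12 to 1.47) and Igf2bp3 1.27-fold lower (1.18 to 1.38). Ythdf1 and Ythdc1 did not differ beyond counting error. In KO cells 0 readers were called either way too, again near the shares of all genes, 9.31% called higher and 6.65% lower. There all 7 log2 folds were below 0, between −0.94 for Igf2bp3 and −0.20 for Igf2bp2, where 45.0% of all genes were above 0. Igf2bp3 was 1.93-fold lower in KO EBs than in KO ESCs (1.72 to 2.17) and Ythdc1 1.64-fold lower (1.54 to 1.74).

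The difference between the KO effect in EBs and in ESCs, on the log2 scale, was below 0 for all 7 readers and reached −1 for 0 of them. Over all genes 54.3% had a difference below 0, 12.5% one of −1 or lower and 11.4% one of 1 or higher, and the median was −0.077. With 7 genes, 0 at −1 is near the background. Igf2bp2 had −0.80 (95% counting interval −0.97 to −0.64), Ythdc1 −0.69 (−0.84 to −0.55) and Igf2bp3 −0.59 (−0.79 to −0.40). The Ythdc2 interval included 0 (−0.47 to 0.098). This difference rests on 4 libraries with no replicate. Markers of other cell types and states also differed. On the same EB minus ESC scale the 6 pluripotency genes that passed were all above 0, with a median of 1.30 and 4 at 1 or higher, and the 9 endoderm genes were all at −1 or lower, with a median of −3.37. The 4 fibroblast and feeder markers that passed had a median of 0.052, but all 4 were called higher in KO at both stages. Of all genes 15.2% were called higher in KO EBs and 10.6% in KO ESCs. The summed level of the 8 fibroblast and feeder markers was 5751 in KO EBs, 1054 in WT EBs, 1909 in KO ESCs and 381 in WT ESCs. Pdgfra, Pdgfrb, Dcn and Postn were listed at 0. Each marker listed at 0 in this paragraph has 2 or more entries, as Ythdf3 does, so its 0 is no measure of it. For 6 trophoblast markers (Elf5 and Eomes at 0) the sum was 1117 in KO EBs, 507 in WT EBs, 487 in KO ESCs and 118 in WT ESCs. Gata3 held 528 and Ascl2 519 of the KO EB sum, and 349 and 70.1 of the WT EB sum. Tfap2c stood at 49.3 in KO EBs and 37.4 in WT EBs. Cdx2 went the other way, at 19.4 in KO EBs and 49.9 in WT EBs. For 7 mesoderm and heart markers (Tnnt2 at 0) the sum was 413 in KO EBs, 93.5 in WT EBs, 171 in KO ESCs and 98.8 in WT ESCs. Hand1 alone held 299 of the KO EB sum and 40.5 of the WT EB sum. Tbx5, Nkx2-5 and Myl7 also had higher values in KO at both stages. T went the other way, with 0 reads in both KO libraries, 3 in WT EBs and 8 in WT ESCs. Mesp1 had at most 2 reads in any library. For 6 neuroectoderm markers (Pax6 and Map2 at 0) the sum was 1311 in KO EBs, 748 in WT EBs, 1966 in KO ESCs and 1865 in WT ESCs. Tubb3 alone held 1133 of the KO EB sum and 553 of the WT EB sum. For KO over WT in EBs the log2 fold was 1.03 for Tubb3 and 0.35 for Nes. For Sox1 it was −2.79, from 2 and 17 reads, and for Neurod1 −1.29, from 12 and 29 reads. The part of these cell types in the reader levels was not tested.

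Genes with the most similar profile were sought among 7482 genes with a mean of at least 100, by root mean square distance between centred log2 profiles over the 4 libraries. Only readers whose highest and lowest library lay at least 2-fold apart were used. The 3 closest to Ythdc1 were Zfp111, Atn1 and Jcad, at distances of 0.047, 0.054 and 0.056, with 19 genes within 0.1. For Ythdf2 they were Snrnp35, Usp20 and Mtss2, at 0.045, 0.045 and 0.049, with 42 genes within 0.1. For Igf2bp3 they were Zc3hav1, Zfp982 and Uchl4, at 0.064, 0.074 and 0.077, with 6 genes within 0.1. With 4 libraries such likeness is a description of these profiles.

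Genes that work with the readers were counted from lists drawn up for this purpose. Some listed genes were at 0 reads, as Ythdf3 was. Of those named below, Nxf1 has 2 entries and Igf2 and Wtap 3 each, so their reads may come from only part of the gene. Among the decay factors that Ythdf2 recruits, chiefly CCR4-NOT subunits, 8 of 12 passed the filter. In KO EBs 1 of these 8 was called lower, 0 were higher and 7 were below 0, with a median log2 fold of −0.62. Over all genes 53.5% were below 0 in this comparison and 50.3% in that of ESCs, and 12.2% were called lower in KO EBs, so 1 called gene of 8 is near the background. In KO ESCs 0 were called and 6 were below 0, with a median of −0.35; under same-total scaling 5 were. The deadenylase subunit Cnot6 stood at 92.5 in KO EBs and 207 in WT EBs, 2.24-fold lower (1.65 to 3.08). Cnot10 was 1.77-fold lower in KO EBs (1.62 to 1.94) and 1.47-fold lower in KO ESCs (1.40 to 1.55). Most of the 8 thus had lower values in KO, in the direction opposite to Ythdf2, and none of them was tested with replicates.

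For Ythdc1 the nuclear partners on the list were splicing factors and the mRNA exporter Nxf1, of which 3 of 5 passed. In KO EBs 1 was called lower, where 12.2% of all genes were, and 1 was above 0, with a median log2 fold of −0.34. In KO ESCs 0 were called and 3 were below 0, where 50.3% of all genes were, with a median of −0.19. With 3 genes these counts are not in themselves a result about the list. Nxf1 stood at 234 in KO EBs and 500.3 in WT EBs, 2.13-fold lower (1.76 to 2.60), and at 457 in KO ESCs and 515 in WT ESCs. Its log2 fold in EBs was −1.09, and under same-total scaling 0 genes of this list were called. Khdrbs1, a splicing regulator of the STAR family, was 1.27-fold lower in KO EBs (1.18 to 1.36) and 1.14-fold lower in KO ESCs (1.09 to 1.19). The splicing factor Srsf3 stood at 80.6 in KO EBs, 46.8 in WT EBs, 48.0 in KO ESCs and 66.2 in WT ESCs, which was 1.72-fold higher in KO EBs (1.08 to 2.79) and 1.38-fold lower in KO ESCs (1.01 to 1.87). Copies elsewhere covered 94.9% of its 28-nt windows, so its level rests on little of the gene. Of the 3 Ythdc2 partners 2 passed. The exonuclease Xrn1 stood at 649 in KO EBs, 1175 in WT EBs, 1140 in KO ESCs and 901 in WT ESCs. Meioc, with which Ythdc2 acts in meiosis, stood at 203 in KO EBs, 374 in WT EBs, 246 in KO ESCs and 239 in WT ESCs.

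Partners of the Igf2bp proteins in ribonucleoprotein particles made a list of 7, of which 5 passed. In KO EBs 1 was called lower, 0 higher and 4 were below 0, with a median log2 fold of −0.67. Of all genes 12.2% were called lower there and 53.5% were below 0. In KO ESCs 0 were called and 4 were below 0, where 50.3% of all genes were, with a median of −0.54. With 5 genes these counts are not in themselves a result about the list. The helicase Dhx9 stood at 2911 in KO EBs and 6109 in WT EBs, 2.10-fold lower (1.99 to 2.22); its log2 fold of −1.07 became −0.95 under same-total scaling, which ends the call. Hnrnpu, a nuclear RNA-binding protein, was 1.34-fold lower in KO EBs (1.29 to 1.38) and 1.45-fold lower in KO ESCs (1.42 to 1.48).

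In the list of the let-7 and Lin28 axis 6 of 9 passed, and it split. In KO EBs 2 were called higher and 1 lower, where 15.2% of all genes were called higher and 12.2% lower. In KO ESCs 1 was called higher and 1 lower, where the shares were 10.6% and 4.42%. With 6 genes these counts are not in themselves a result about the list. Lin28a, which blocks let-7 processing, stood at 545 in KO EBs and 1216 in WT EBs, 2.23-fold lower (1.97 to 2.53). In ESCs it stood at 109 in KO and 274 in WT, 2.52-fold lower (2.11 to 3.01). Lin28b was low throughout, at 20.9 in KO EBs, 39.0 in WT EBs, 35.7 in KO ESCs and 49.8 in WT ESCs, and neither genotype ratio excluded 1. Hmga2, a chromatin protein and a classic let-7 target, stood at 86.6 in KO EBs and 35.8 in WT EBs, 2.42-fold higher (1.47 to 4.10). Copies elsewhere covered 48.7% of its 28-nt windows. Igf2, the growth factor for whose mRNA the Igf2bp proteins were named, had 65 reads in KO EBs and 28 in WT EBs, and its level was 2.22-fold higher (1.41 to 3.60). In ESCs it stood at 16.5 in KO and at a single read in WT, a ratio of 21.2 (3.54 to 866). Lin28a was thus lower in KO at both stages, as were the 3 Igf2bp genes, whereas Hmga2 and Igf2 were higher in KO EBs. Mycn was higher in KO at both stages, with log2 folds of 0.87 in EBs and 0.62 in ESCs. Trim71 was lower at both, at −0.20 in EBs and −0.41 in ESCs.

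**Figure D5:**
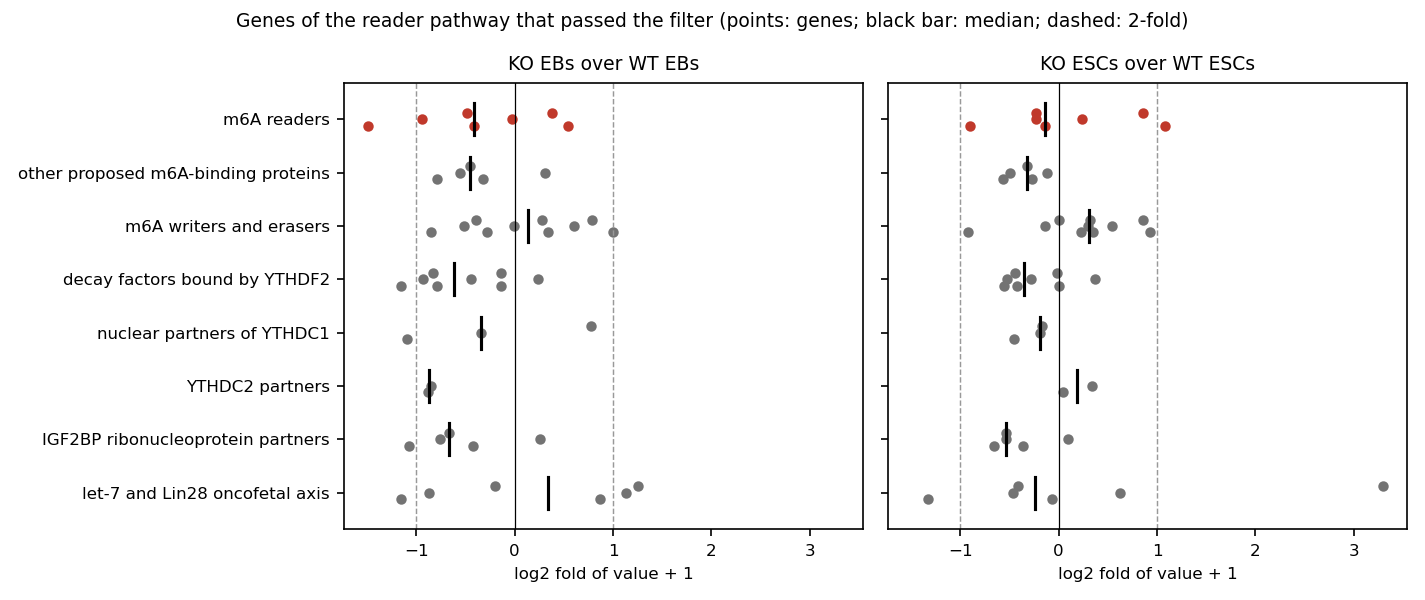
Log2 fold of value + 1 (horizontal axis) of KO over WT in EBs (left) and ESCs (right) for genes that passed the filter, by list; points are genes, black bars medians and dashed lines 2-fold. The medians of decay factors, −0.62 and −0.35, and of Igf2bp partners, −0.67 and −0.54, lie left of 0 in both panels.

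Further lists set the readers beside the rest of the m6A machinery. Over all genes 15.2% were called higher and 12.2% lower in KO EBs, and 10.6% higher and 4.42% lower in KO ESCs. Of 10 other proteins proposed to bind m6A, 5 passed and 0 were called in either KO comparison, with medians of −0.45 in EBs and −0.32 in ESCs. Fmr1, the fragile X protein, was 1.47-fold lower in KO EBs (1.32 to 1.65) and 1.48-fold lower in KO ESCs (1.39 to 1.57), and Lrpprc was 1.73-fold lower in KO EBs (1.61 to 1.87). Of 11 writers and erasers 10 passed and 0 were called in either KO comparison, with medians of 0.14 in EBs and 0.31 in ESCs. In EBs 5 were above and 5 below 0, and in ESCs 8 were above and 2 below. Of all genes 46.5% were above 0 in EBs and 49.6% in ESCs. Under same-total scaling 1 was called higher at each stage, where 17.4% of all genes were in EBs and 12.7% in ESCs. With so few genes these counts are not in themselves a result about either list. Wtap, the adaptor of the writer complex, stood at 978 in KO EBs and 489 in WT EBs, 1.998-fold higher (1.74 to 2.29), and was 1.81-fold higher in KO ESCs (1.68 to 1.95); copies elsewhere covered 48.5% of its 28-nt windows. Rbm15, which guides the complex to its sites, was 1.52-fold higher in KO EBs (1.38 to 1.66) and 1.90-fold higher in KO ESCs (1.78 to 2.02). The other way went Mettl14, the partner of Mettl3, at 1.81-fold lower in KO EBs (1.55 to 2.13), and its ESC ratio did not exclude 1. Virma, the scaffold of the complex, was 1.43-fold lower in KO EBs (1.30 to 1.57) and 1.23-fold higher in KO ESCs (1.17 to 1.30).

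Promoters are given for Ythdc1 and Igf2bp3, the readers past 2-fold in either direction, as the 250 bases before the start site in RefSeq's table (GRCm38.p6, 5′ to 3′ on the gene's strand); the table held 5 of the 8 readers. These start sites are those of NM_177680 at 86804266 and NM_023670 at 49214954; the outer bounds of both genes in the annotation lie farther upstream, by 286 and 515 bases, so both windows fall inside the gene spans given above. Capitals mark matches, on either strand, to the E box CACGTG, the cAMP response element TGACGTCA, the CCAAT box CCAAT, the GC box GGGCGG or the TATA box TATAAA, none of which overlapped another in these windows.
Ythdc1 (chr5:86804016-86804265, plus strand): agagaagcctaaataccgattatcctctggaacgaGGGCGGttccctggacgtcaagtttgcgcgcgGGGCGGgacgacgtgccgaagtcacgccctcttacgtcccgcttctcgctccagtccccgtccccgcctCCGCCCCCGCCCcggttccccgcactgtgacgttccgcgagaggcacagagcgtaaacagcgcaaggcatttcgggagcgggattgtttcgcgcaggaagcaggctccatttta
Igf2bp3 (chr6:49214955-49215204, minus strand): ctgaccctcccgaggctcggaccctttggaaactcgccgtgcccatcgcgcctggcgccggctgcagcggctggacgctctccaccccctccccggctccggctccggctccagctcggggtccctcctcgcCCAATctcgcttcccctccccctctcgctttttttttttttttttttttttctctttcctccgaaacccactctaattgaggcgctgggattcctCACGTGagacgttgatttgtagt
Ythdc1 held 4 matches to GGGCGG, of which a pair abut, and Igf2bp3 held 0; 32.7% of 32851 promoters have one. Igf2bp3 held 1 match to CACGTG, found in 6.02% of promoters, and 1 to CCAAT, found in 33.9%, and Ythdc1 held 0 of each. Neither held TGACGTCA, which 1.55% of promoters hold, or TATAAA, which 12.4% hold. The Ythdc1 window had 30 CG dinucleotides and that of Igf2bp3 21, against a median of 6 over all promoters.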

How the data were processed

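Ribosome footprints were deposited for 4 libraries, 1 per group, and each column of the table was matched to its library by genotype and culture in the title. The submitters' processing notes name mm10, DESeq, HTSeq 0.6.0, TopHat2 2.0.10, Bowtie and CASAVA 1.8.2; settings, annotation version and strand handling: not given in the sources used here. Values were deposited as a normalised signal, read counts per RefSeq coding sequence that the authors divided by 1 factor per library. All values (100%) were integer multiples of one step per library within a tolerance of 0.01, so the reads were recovered. Of 27442 entries 27083 matched a symbol of GRCm38.p6, the assembly of mm10, and entries were summed per gene. The 5 summary entries stayed out; not uniquely placed reads were 53.1%, 51.7%, 48.4% and 55.7% of all reads in KO EBs, WT EBs, KO ESCs and WT ESCs, and ambiguous ones 8.62%, 9.74%, 10.5% and 8.71%.

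Genes with a mean of at least 25 were compared as log2 of value + 1, a scale that understates low genes' changes, called at 2-fold, with no p-value between single libraries. Intervals of a level are exact Poisson ones. Planned as a normalised unit only, the recovered reads were also tested with edgeR 4.0.16 and DESeq2 1.42.0 (design stage + genotype), after both were tested on simulated data. Coding sequences, untranslated regions and 28-nt windows were read from the GRCm38.p6 genome and RefSeq annotation with Python 3.11.15, and coding length gives levels per kb. Named were all readers, Mettl3, list genes called in a comparison with up to 2 others per list, and for the closest profiles 3 genes per reader. Mettl14, Virma, Ybx1, G3bp1, Mycn, Trim71 and the single trophoblast, mesoderm and heart, and neuroectoderm markers were named after their values were seen. The members and lists were chosen with earlier results of these data known.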

Additional observations from a re-analysis of the deposited data

Results flagged for a closer look

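Ythdf1, Xrn1, Meioc, Hmga2, Srsf3, Ybx1, Virma and G3bp1 had KO differences of opposite sign at the 2 stages, each with a single library per group, and the difference between stages was not tested against replicates. For Ythdf1 the log2 fold was −0.030 in KO EBs over WT EBs and 0.23 in KO ESCs over WT ESCs; the EB interval included equality and its sign depended on the scaling. For the exonuclease Xrn1 it was −0.85 in EBs and 0.34 in ESCs, with both counting intervals away from equality. For Meioc it was −0.88 in EBs and 0.041 in ESCs, where the interval included equality. For Hmga2 it was 1.25 in EBs and −0.069 in ESCs, an ESC value within counting error that was 0.053 under same-total scaling. Both counting intervals excluded equality for the next 4 genes as well. Srsf3 had 0.77 in EBs and −0.45 in ESCs, and Ybx1, an mRNA-binding partner of the Igf2bp proteins, had 0.26 in EBs and −0.65 in ESCs. Virma had −0.51 in EBs and 0.30 in ESCs, and G3bp1, a stress granule protein, had 0.31 in EBs and −0.32 in ESCs. Copies elsewhere in the genome covered 94.9% of the footprint-length windows of Srsf3, 71.1% of those of Ybx1 and 64.8% of those of G3bp1. The levels of Srsf3, Ybx1 and G3bp1 therefore rest on only part of each gene. For Virma the share was 1.53%.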

How the results depend on the processing

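All 60 recomputed counts of called readers equalled the main ones, under pseudocounts of 0.5 and 5, a minimum mean of 100, no filter, same-total scaling and the highest single entry per gene. Of 210 recomputed log2 folds of the 7 readers, 203 stayed within the counting interval, and the other 7 came from same-total scaling; 0 called values reversed. For the list genes named, with Mycn, Trim71 and markers left out, 494 of 512 stayed within it. Of the rest, 17 left it under that scaling and 1, Igf2, with a pseudocount of 5. The count tests disagreed. For KO against WT over both stages edgeR called 0 genes and DESeq2 251 higher and 71 lower, and for EBs against ESCs edgeR called 7 higher and 2 lower and DESeq2 274 higher and 101 lower; the cause was not tested. No paired analysis was possible because the libraries carry no replicate numbers; stage entered both count tests as a factor. The lowest reader, Ythdc2, had 234 reads in KO EBs, so its ratios have the widest intervals, and no interval covers the spread between cultures.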
